A study of Mus musculus with 28 samples.

Results

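The aryl hydrocarbon receptor system was followed in mouse bone marrow-derived macrophages through 6 genes: the receptor Ahr, its DNA-binding partner Arnt, its repressor Ahrr and the target genes Cyp1a1, Cyp1b1 and Tiparp. Every probe set whose annotated symbol is 1 of these genes was taken, which gave 15 of the 45101 probe sets of the table, or 15 of the 45037 that remained once 64 control probe sets were left out. Loss of Nrf2 went with lower Ahr, Ahrr, Cyp1a1 and Cyp1b1 and, under the vehicle, with higher Arnt by 3 of its 5 probe sets. Cyp1b1 was 16-fold lower and Ahr 4.21-fold lower in cells without Nrf2 under the vehicle. Silencing of Keap1 with either siRNA went with higher Tiparp and, by its brighter probe set, higher Ahr. Arnt was lower by 3 of its 5 probe sets, and Cyp1b1 was higher by 1 of its 3. The compound RA839 raised no member past the threshold in the unpaired fit. With the replicate number as a block, 1 Ahr and 1 Tiparp probe set passed as higher in cells with Nrf2 (limma adjusted p = 0.00513 and 0.0133).

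The 7 groups held 4 arrays each, 28 in all, and the submitters call the 4 biological replicates, so p-values measure the spread between these cultures. The unpaired fits count every array of an experiment as separate, although arrays of the same replicate number deviated together within each genotype. In the compound experiment, macrophages of Nrf2 -/- mice (KO) received RA839 or the solvent DMSO alone, and macrophages of Nrf2 +/+ mice (WT) received the same. Cells were exposed for 4 h at 0.2% DMSO, which the DMSO groups also carried. In the siRNA experiment, Nrf2 +/+ macrophages carried siKeap1-1, siKeap1-2 or siControl. All mice are labelled C57BL/6 J and were 12 weeks old. RA839 is a small molecule that binds Keap1, the protein that directs the transcription factor Nrf2 to degradation. Of the compound, the design text writes RA838 in its only mention and the sample labels write RA839. The labels and design text name neither the dose of RA839 nor the deleted allele, the sequences of the siRNAs, how long after transfection RNA was taken or how many animals a culture came from.

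The aryl hydrocarbon receptor (AhR) is a ligand-activated transcription factor of the bHLH-PAS family. Without ligand it waits in the cytoplasm in a chaperone complex; with ligand it enters the nucleus, pairs with ARNT and binds DNA sites with the core GCGTG. Its classical targets are the cytochromes P450 Cyp1a1 and Cyp1b1, and it also induces 2 of its own inhibitors, Ahrr, which competes for ARNT, and Tiparp, an ADP-ribosyltransferase that limits receptor activity. In macrophages the receptor is known for sensing dietary, microbial and tryptophan-derived ligands. Nrf2 acts through another site, the antioxidant response element, and some genes such as Nqo1 are known targets of both factors.

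The promoter sequences of the members are shown because they let the sites of both factors be seen beside the changes that follow. RefSeq entries of build GRCm38.p6 were matched for 5 of the 6 genes by symbol; Ahr was not matched. The 250 bases before the start of each gene are printed in the direction of transcription. Capitals mark GCGTG, the AhR core, on either strand (CACGC where it lies on the opposite strand), and in Arnt also TGACNNNGC, the core of the antioxidant response element, on either strand. Ahrr lies on the minus strand at chr13:74292332-74292581, Arnt on the plus strand at chr3:95434140-95434389 and Cyp1a1 on the plus strand at chr9:57697363-57697612. Cyp1b1 lies on the minus strand at chr17:79715062-79715311 and Tiparp on the plus strand at chr3:65528197-65528446.
Ahrr: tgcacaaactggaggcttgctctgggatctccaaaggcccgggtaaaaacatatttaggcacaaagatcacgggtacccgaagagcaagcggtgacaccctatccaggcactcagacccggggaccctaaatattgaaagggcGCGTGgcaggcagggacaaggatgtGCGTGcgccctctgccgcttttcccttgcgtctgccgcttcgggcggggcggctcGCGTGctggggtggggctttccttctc
Arnt: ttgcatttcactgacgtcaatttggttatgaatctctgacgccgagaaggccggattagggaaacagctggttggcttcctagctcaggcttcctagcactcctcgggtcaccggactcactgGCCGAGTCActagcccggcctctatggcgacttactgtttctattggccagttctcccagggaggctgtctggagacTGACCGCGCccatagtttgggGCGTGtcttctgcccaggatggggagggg
Cyp1a1: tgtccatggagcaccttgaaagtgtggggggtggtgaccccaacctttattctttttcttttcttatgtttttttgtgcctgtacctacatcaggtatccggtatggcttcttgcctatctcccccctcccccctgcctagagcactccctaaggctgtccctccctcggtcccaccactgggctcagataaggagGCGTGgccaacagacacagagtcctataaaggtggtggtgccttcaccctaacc
Cyp1b1: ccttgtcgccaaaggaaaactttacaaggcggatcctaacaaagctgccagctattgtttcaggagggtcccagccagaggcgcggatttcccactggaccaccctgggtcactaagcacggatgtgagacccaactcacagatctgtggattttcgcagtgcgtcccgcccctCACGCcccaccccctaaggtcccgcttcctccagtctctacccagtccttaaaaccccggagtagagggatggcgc
Tiparp: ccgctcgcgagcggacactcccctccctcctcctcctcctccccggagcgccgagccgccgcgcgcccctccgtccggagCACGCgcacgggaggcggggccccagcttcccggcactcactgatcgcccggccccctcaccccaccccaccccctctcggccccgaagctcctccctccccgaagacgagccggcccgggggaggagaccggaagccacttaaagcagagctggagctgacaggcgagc

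The AhR core stood in each of these 5 promoters. Ahrr held 3 copies, which began at positions -107, -82 and -27 from the start of the gene. Arnt held 1 at -29, Cyp1a1 1 at -54, Cyp1b1 1 at -76 and Tiparp 1 at -170, those of Cyp1b1 and Tiparp on the opposite strand. Among all 32851 promoters of the table, 28.2% held GCGTG at least 1 time in the same window and 2.77% at least 3 times. The antioxidant response element core stood only in the Arnt window among the 5, at -127 on the opposite strand and at -50. It was present in 10.2% of all promoters, and 0.658% held it at least 2 times. No match of one motif overlapped a match of the other (0 overlaps). These matches describe letters in a short window and say nothing of binding.

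The labels were checked first. Nfe2l2, which encodes Nrf2, averaged 3.27 ± 0.08 in KO cells with RA839 and 3.40 ± 0.11 in KO cells with DMSO, against 12.30 ± 0.32 in WT cells with RA839 and 12.72 ± 0.20 in WT cells with DMSO (log2 values, SD, n = 4 each). Keap1 averaged 9.06 ± 0.09 with siKeap1-1 and 9.26 ± 0.15 with siKeap1-2, against 11.09 ± 0.10 with siControl. All 8 macrophage markers were measured, and their mean log2 value lay between 11.9 and 13 over the groups' arrays, with the lysozyme gene Lyz2 highest. Array medians lay between 5.61 and 5.71 in the compound experiment and between 5.91 and 5.96 in the siRNA experiment, so levels were compared only within an experiment. Array 2 of the WT cells with RA839 stood apart in RNA quality: its Gapdh signal at the 3′ end exceeded that at the 5′ end by 3.74 on the log2 scale, against 0.769 to 1 on the other compound arrays. Values that it decides are given with and without it. In bulk RNA, fewer cells of a type and less RNA per cell cannot be told apart.

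Several members have more than 1 probe set, and these are not independent. Both Ahr probe sets were designed on 1 sequence, as were all 3 of Tiparp, a pair of the 3 of Cyp1b1 (1416612_at and 1416613_at) and a pair of the 5 of Arnt (1419996_s_at and 1449696_at). Ahrr and Cyp1a1 have 1 probe set each. The brighter Ahr probe set, 1422631_at, stood at a mean of 10.64 over the 28 arrays and the other, 1450695_at, at 4.08. In each group the dimmer of the pair stood between percentiles 20.4 and 30.2 of the probe sets tested. RMA, which made the values, narrows differences between dim probe sets, so a change at such levels can be understated.

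**Figure D1:**
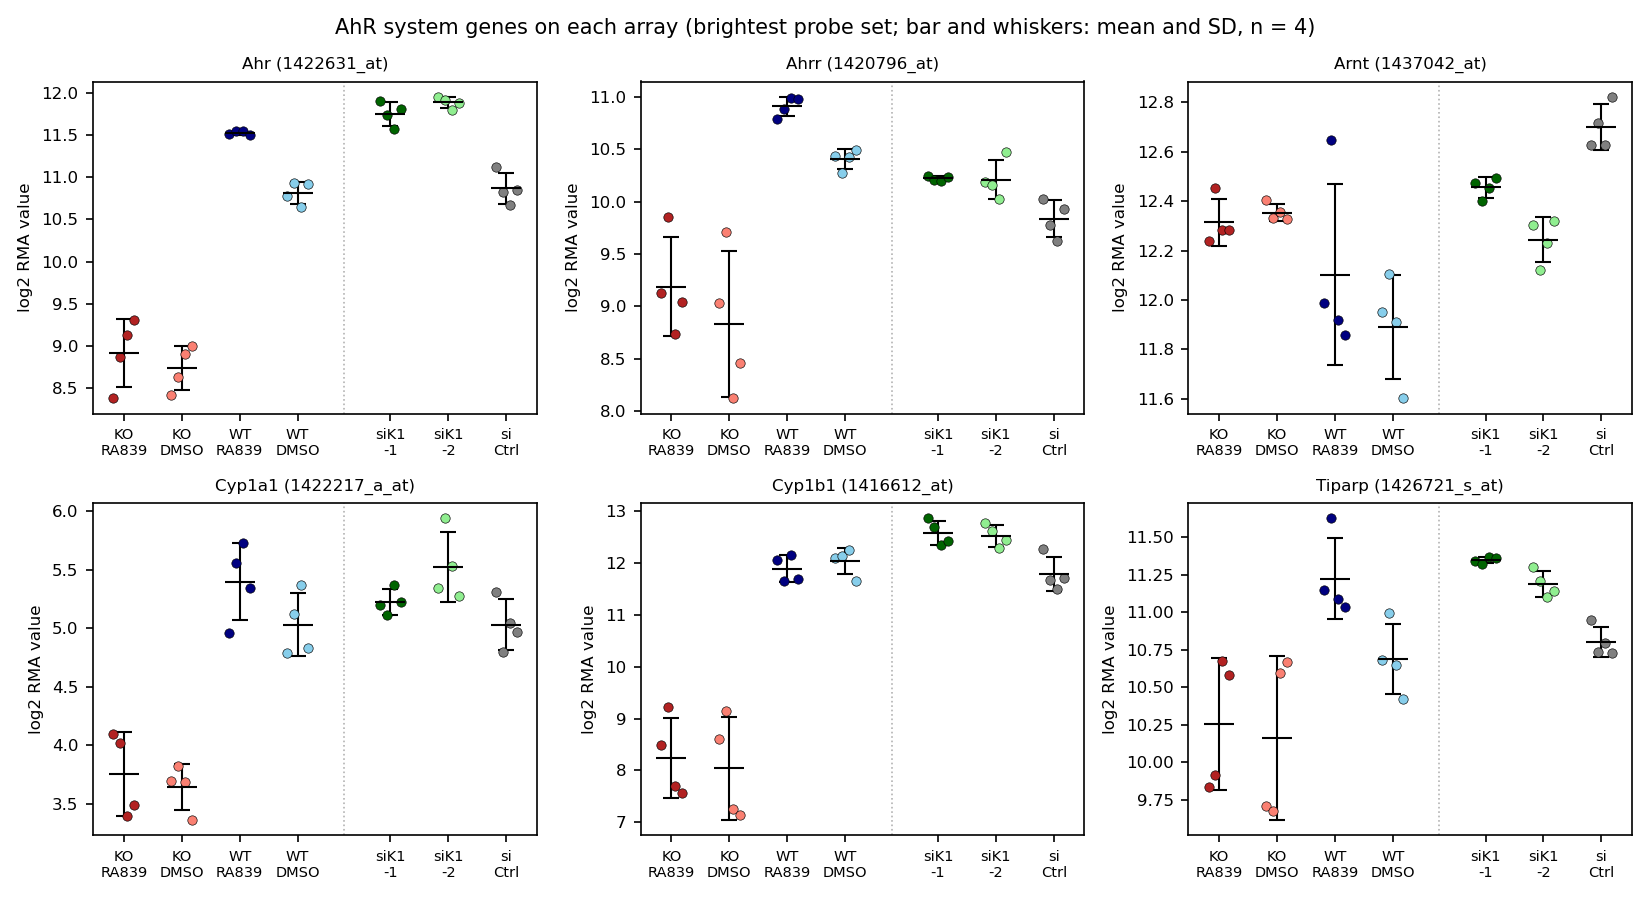
Log2 RMA values of the brightest probe set of each member gene on every array, with mean and SD of the 4 arrays of a group; the dotted line separates the compound experiment (left) from the siRNA experiment (siK1-1 and siK1-2 are siKeap1-1 and siKeap1-2), and each panel has its own axis. The KO arrays of Ahr, Ahrr, Cyp1a1 and Cyp1b1 all lie below the WT arrays, while the Arnt arrays with DMSO lie above theirs.

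Loss of Nrf2 was compared first under DMSO. Of the 15 probe sets, 3 were higher and 7 were lower in KO cells at a Benjamini-Hochberg adjusted p under 0.05, where 9.87% of all probe sets were higher and 11.4% were lower (21.3% in either direction). The calls fell on 5 of the 6 genes: the 3 higher ones were all Arnt, and the 7 lower ones were Ahr, Ahrr, Cyp1a1 and Cyp1b1. The median log2 difference was -0.503 over the members and -0.00405 over all probe sets tested. With no overlap between the 4 KO and the 4 WT arrays stood 3 probe sets above, where the share over all probe sets was 13%, and 6 below, where it was 13.6%.

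The receptor itself was lower. Ahr 1422631_at read 8.42, 8.63, 8.91 and 9.002 on the KO arrays with DMSO, against 10.77, 10.93, 10.65 and 10.91 on the WT arrays with DMSO. Every KO array lay below every WT array. The log2 difference was -2.07 ± 0.17 (SE; 4.21-fold lower; limma adjusted p = 7.72e-07). Ahr 1450695_at averaged 3.65 ± 0.29 in KO cells with DMSO and 4.15 ± 0.13 in WT cells with DMSO, and its arrays overlapped. Its difference was -0.50 ± 0.16 (adjusted p = 0.0378). The adjusted p reached 0.121 when 1 array was left out, and the call was lost without array 1, 2 or 3 of WT DMSO or array 1, 2 or 4 of KO DMSO.

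The target genes were lower as well. Cyp1b1, which hydroxylates estradiol and polycyclic hydrocarbons, read 8.61, 9.14, 7.26 and 7.14 for 1416612_at on the KO arrays with DMSO, against 12.10, 12.13, 12.25 and 11.66 on the WT arrays with DMSO. The groups were far apart although the KO arrays ranged over 2 log2 units. The difference was -4.00 ± 0.41 (16-fold lower; adjusted p = 8.41e-06). The other Cyp1b1 probe sets were lower too, with log2 differences of -3.34 ± 0.41 (1416613_at; adjusted p = 4.64e-05) and -2.22 ± 0.20 (1432081_at; adjusted p = 1.98e-06). The last of these was designed on another sequence than the first pair.

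Cyp1a1, the enzyme used most often as a readout of AhR activity, was dim in all groups. It read 3.70, 3.83, 3.69 and 3.36 on the KO arrays with DMSO, against 4.79, 5.13, 5.37 and 4.84 on the WT arrays with DMSO. The groups did not overlap, and the difference was -1.39 ± 0.19 (2.62-fold lower; adjusted p = 0.000152). Cyp1a2, the related P450 of liver, stayed between 2.76 and 3.50 on all 28 arrays.

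Of the 2 inhibitors, Ahrr was lower and Tiparp did not pass the test. Ahrr 1420796_at read 9.03, 9.70, 8.12 and 8.46 on the KO arrays with DMSO, against 10.44, 10.28, 10.43 and 10.49 on the WT arrays with DMSO. All KO arrays lay below all WT arrays, with a difference of -1.58 ± 0.27 (2.99-fold lower; adjusted p = 0.000769). Tiparp 1426721_s_at read 9.71, 9.67, 10.59 and 10.67 on the KO arrays with DMSO, against 10.68, 10.99, 10.65 and 10.42 on the WT arrays with DMSO. KO arrays 1 and 2 lay below all WT arrays, and KO arrays 3 and 4 lay among them. The differences of the 3 Tiparp probe sets were -0.53 ± 0.25, -0.35 ± 0.26 and -0.34 ± 0.29 (adjusted p = 0.15, 0.376 and 0.442).

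The partner moved the other way by 3 of its 5 probe sets. Arnt 1449696_at read 10.46, 10.47, 10.38 and 10.47 on the KO arrays with DMSO, against 9.81, 9.89, 9.62 and 9.71 on the WT arrays with DMSO. All KO arrays lay above all WT arrays, by 0.69 ± 0.09 (1.61-fold higher; adjusted p = 7.21e-05). Arnt 1419996_s_at was higher by 0.56 ± 0.08 (adjusted p = 0.000268). Arnt 1437042_at, designed on another sequence, was higher by 0.46 ± 0.15 (adjusted p = 0.0366), a call that was lost without array 1, 3 or 4 of WT DMSO or any 1 of the KO DMSO arrays, with an adjusted p of up to 0.113. Arnt 1421721_a_at, designed on a RefSeq mRNA, and the dim 1425064_at did not pass the test. Their differences pointed down, at -0.26 ± 0.14 (adjusted p = 0.199) and -0.07 ± 0.11 (adjusted p = 0.711), so 3 of the 5 probe sets of the gene passed.

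Markers of other cells were counted in the same contrast. Of 38 markers in all, 12 passed, where 23.2% of all genes did. Of the 8 measured neutrophil and precursor markers, 0 were higher and 3 were lower in KO cells with DMSO (S100a8, Ctsg and Ltf), and their summed linear signal was 2040 to 3000 on the KO arrays, against 4440 to 4910 on the WT arrays. Of 7 fibroblast markers, 0 were higher and 3 were lower (Col1a2, Pdgfra and Dcn), with sums of 174 to 223 and 174 to 353, and 6 of the 7 averaged below a log2 value of 6 in both groups. Of 8 macrophage markers, 2 were higher (Fcgr1 and Cd14) and 1 was lower (Itgam), with sums of 79500 to 87800 and 79300 to 82300. Of 4 endothelial markers, Kdr was higher and Cdh5 was lower, with sums of 441 to 546 and 264 to 340. In both groups 3 of these 4 averaged below 6, as did 4 of the 8 neutrophil markers, with Kdr and S100a8 the highest of their lists. Of 3 T-cell markers, Cd4 was lower, with sums of 185 to 265 and 220 to 284. No dendritic-cell marker of 5 and no B-cell marker of 3 passed the test. The part of these cells in the changes of the AhR system was not tested.

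**Figure D2:**
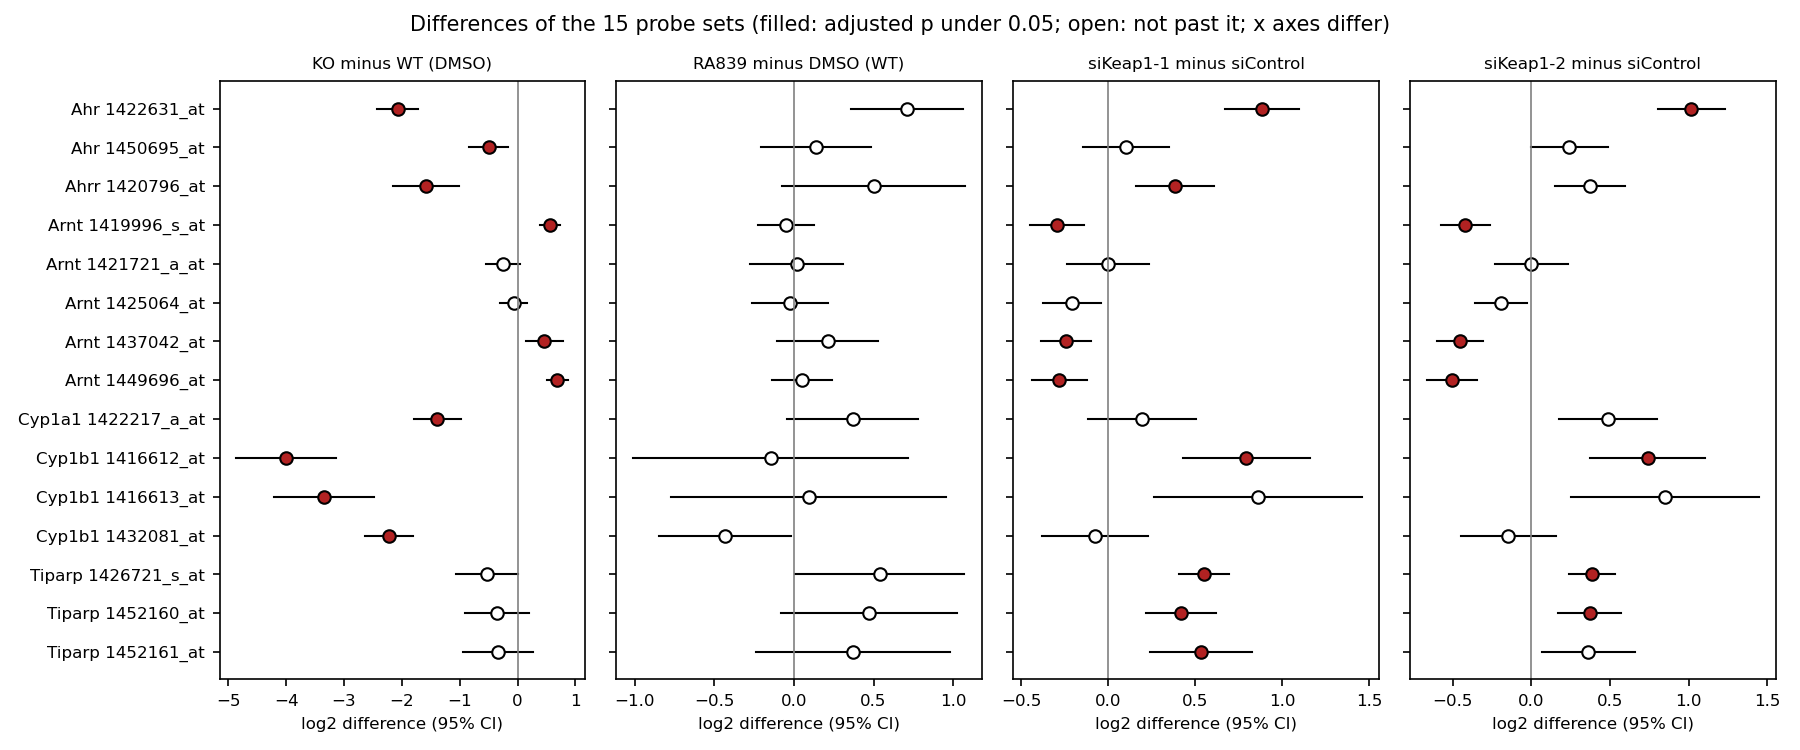
Log2 differences with 95% confidence intervals (limma) for the 15 probe sets in 4 comparisons, filled where the adjusted p was under 0.05; the x axes differ. Cyp1b1 1416612_at stands at -4.00 for KO minus WT, no point is filled for RA839 minus DMSO in WT cells, and the 3 filled Arnt points lie right of 0 for KO minus WT and left of 0 for both Keap1 siRNAs.

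Under RA839, KO and WT cells were compared in the same way. Of the 15 probe sets, 2 were higher (13.3% of all probe sets) and 7 were lower (13% of all probe sets; 26.3% in either direction), with calls on all 6 genes. The median was -0.728 over the members and 0.00608 over all probe sets. Ahr 1422631_at read 8.38, 8.87, 9.13 and 9.31 on the KO arrays with RA839, against 11.51, 11.55, 11.54 and 11.50 on the WT arrays with RA839. Every KO array lay below every WT array, with a difference of -2.60 ± 0.17 (6.08-fold lower; adjusted p = 2.93e-08). The dim Ahr 1450695_at did not pass, with overlapping arrays and a difference of -0.43 ± 0.16 (adjusted p = 0.0644); it passed without array 3 of WT RA839 (-0.57; adjusted p = 0.0161) or array 3 of KO DMSO (adjusted p = 0.0446). Cyp1b1 1416612_at fell by 3.65 ± 0.41 (adjusted p = 1.35e-05), Ahrr by 1.72 ± 0.27 (adjusted p = 0.000295) and Cyp1a1 by 1.65 ± 0.19 (adjusted p = 2.15e-05) on the log2 scale.

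Tiparp passed the test under RA839. Tiparp 1426721_s_at read 9.83, 9.92, 10.68 and 10.58 on the KO arrays with RA839, against 11.15, 11.63, 11.09 and 11.04 on the WT arrays with RA839. The groups did not overlap, and the difference was -0.97 ± 0.25 (1.96-fold lower; adjusted p = 0.00993). Tiparp 1452160_at had a difference of -0.73 ± 0.26 (adjusted p = 0.0504) and 1452161_at one of -0.64 ± 0.29 (adjusted p = 0.116). For 1452160_at all KO arrays lay below all WT arrays. It passed without WT DMSO array 2, any 1 of the KO DMSO arrays or KO RA839 array 3 or 4 (adjusted p = 0.0338 to 0.0483). Without other single arrays its adjusted p reached 0.153. Whether the genotype difference itself depended on RA839 was tested as an interaction, the RA839 response of WT cells minus that of KO cells, and for 1426721_s_at it gave 0.45 ± 0.35 (adjusted p = 1).

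Arnt 1419996_s_at and 1449696_at were higher in KO cells with RA839 by 0.56 ± 0.08 (adjusted p = 0.000197) and 0.60 ± 0.09 (adjusted p = 0.000155). Arnt 1421721_a_at and 1425064_at did not pass, with differences of -0.17 ± 0.14 (adjusted p = 0.391) and 0.07 ± 0.11 (adjusted p = 0.671). Arnt 1437042_at had a difference of 0.21 ± 0.15 (adjusted p = 0.315). Array 2 of WT RA839, the array with the high Gapdh ratio, read 12.65 for this probe set, against 11.86 to 11.99 on the other WT RA839 arrays. Without that array the difference was 0.39 (adjusted p = 0.0119). The calls on Ahr 1422631_at, Ahrr, Cyp1a1, Cyp1b1, Tiparp 1426721_s_at and the other called Arnt probe sets held without array 2 of WT RA839.

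Of the 38 cell type markers, 4 were higher and 8 were lower in KO cells with RA839, or 12 in all, where 28.6% of all genes passed. The higher ones were Fcgr1 and Cd14 of the macrophage list, Kdr of the endothelial list (2.41-fold) and Cd79a of the B-cell list. The lower ones were Itgam of the macrophage list, S100a8 of the neutrophil list, Cd4 of the T-cell list, Cdh5 of the endothelial list and the fibroblast markers Col1a2, Pdgfra, Dcn and Lum. Summed neutrophil signal was 1850 to 2400 on the KO arrays with RA839, against 3180 to 4380 on the WT arrays with RA839. Summed endothelial signal was 384 to 535, against 188 to 278, summed B-cell signal was 89.5 to 128, against 73.2 to 82.8, and these 3 sums did not overlap. All 3 B-cell markers averaged below a log2 value of 6 in both groups, as did 5 of the 8 neutrophil and 3 of the 4 endothelial markers. The highest neutrophil marker was S100a8 and the highest endothelial one Kdr. The sums of the macrophage list (76800 to 87900, against 74400 to 83200), the fibroblast list (165 to 231, against 185 to 218) and the T-cell list (183 to 322, against 240 to 335) overlapped. No dendritic-cell marker passed, with sums of 9900 to 12500, against 11100 to 13900. Their part in the AhR changes was not tested.

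The KO arrays differed among themselves, and the members split in how. In both treatments Ahr 1422631_at and Tiparp 1426721_s_at were lowest on KO arrays 1 and 2 and highest on arrays 3 and 4. Ahrr and Cyp1b1 1416612_at were highest on KO arrays 1 and 2. Cyp1b1 1416612_at read 8.49 and 9.21 on arrays 1 and 2 of the KO cells with RA839, and 7.70 and 7.56 on arrays 3 and 4. Tiparp 1452161_at read 6.91 and 6.98 on arrays 1 and 2 of the same group, and 8.02 and 8.07 on arrays 3 and 4. Same-numbered arrays of the 2 KO groups thus stood together, and the labels do not say what a number marks.

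**Figure D3:**
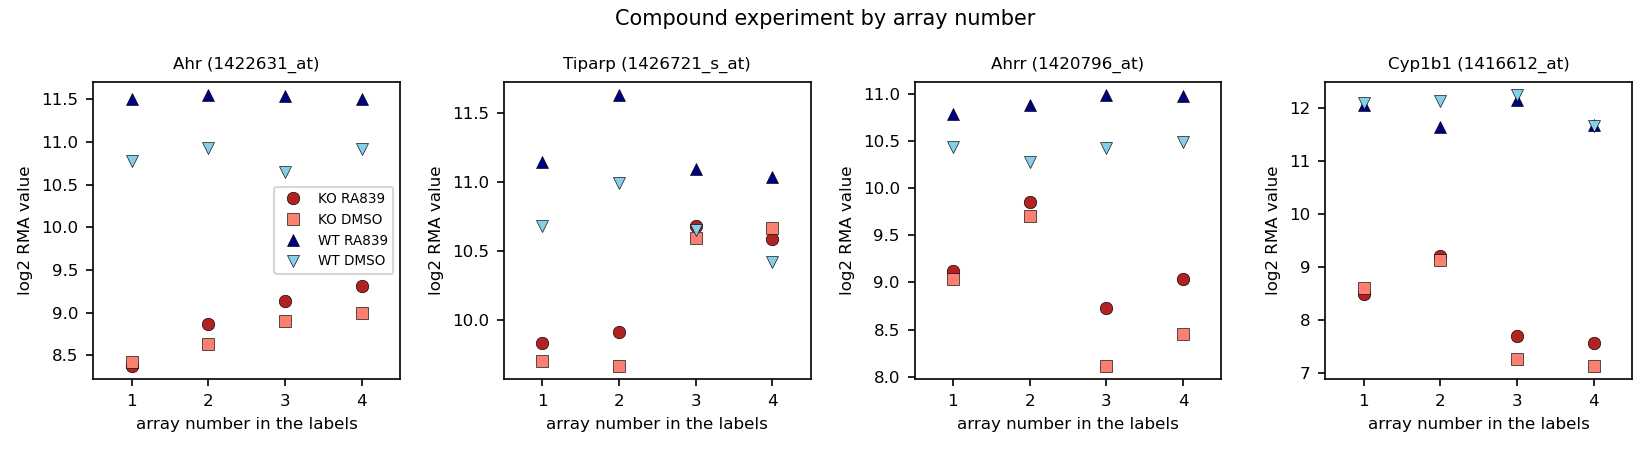
Log2 RMA values of Ahr, Tiparp, Ahrr and Cyp1b1 (brightest probe sets) by array number in the compound experiment, 1 point per array; each panel has its own axis. In KO cells Tiparp is below 10 on arrays 1 and 2 and above 10.5 on arrays 3 and 4, while Cyp1b1 is above 8.4 on arrays 1 and 2 and below 7.8 on arrays 3 and 4; the WT arrays do not show this split.

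The response to RA839 was then read within WT cells. In the unpaired fit 0 of the 15 probe sets passed the threshold, where 0.344% of all probe sets did. An unadjusted p under 0.05 was found for 3 of the 15 and for 4265 of all 45037 tested. Of these 3, Ahr 1422631_at and Tiparp 1426721_s_at were higher with RA839 and Cyp1b1 1432081_at was lower. With the replicate number as a block, 2 of the 15 passed the threshold (Ahr 1422631_at and Tiparp 1426721_s_at), where 1.29% of all probe sets did. The median log2 difference was 0.139 over the members and -0.0178 over all probe sets. The arrays of 3 probe sets lay all above those of the vehicle and of 0 all below, where 2.64% and 2.37% of all probe sets did. Summed neutrophil signal was 3180 to 4380 on the WT arrays with RA839, against 4440 to 4910 on the WT arrays with DMSO, with no overlap. S100a8 was the highest of the 8 neutrophil markers, and 5 with RA839 and 4 with DMSO averaged below a log2 value of 6. Of 38 markers of all lists 0 passed without the block, where 0.506% of all genes did, and 1 with it, where 1.7% did: Fcgr1, lower by 0.34 on the log2 scale (adjusted p = 0.0498 with the block). Their part in the RA839 response was not tested.

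Ahr 1422631_at read 11.51, 11.55, 11.54 and 11.50 on the WT arrays with RA839, against 10.77, 10.93, 10.65 and 10.91 on the WT arrays with DMSO. All 4 arrays with RA839 lay above all 4 with DMSO, by 0.71 ± 0.17 (1.64-fold). The adjusted p was 0.104 without the block, 0.00513 with it and 0.0283 without array 1 of KO RA839, which enters the shared estimate of the spread. Without array 2 of WT RA839 the difference was 0.70 (adjusted p = 0.179). Tiparp 1426721_s_at averaged 11.22 ± 0.27 with RA839 and 10.69 ± 0.24 with DMSO in WT cells, a difference of 0.54 ± 0.25 (adjusted p = 0.522, and 0.0133 with the block). Its lowest RA839 array, at 11.04, lay just above its highest DMSO array, at 10.99. Without array 2 of WT RA839 its difference was 0.40 (adjusted p = 0.787).

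Ahrr averaged 10.91 ± 0.09 with RA839 and 10.41 ± 0.09 with DMSO in WT cells, a difference of 0.50 ± 0.27 (adjusted p = 0.58), and its groups did not overlap either. The SE comes from the spread over all 4 compound groups, which was larger in KO cells, with SDs of 0.48 and 0.70. Cyp1a1 had a difference of 0.37 ± 0.19 (adjusted p = 0.574). The 3 Cyp1b1 probe sets had differences between -0.43 and 0.09. The 95% interval of 1416612_at ran from -1.01 to 0.72, so the size of its change was left uncertain within that range. Its SDs were 0.99 and 0.77 in KO cells with DMSO and RA839, against 0.26 in each WT group, and all 4 groups enter the interval. The 5 Arnt probe sets had differences between -0.05 and 0.21.

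In KO cells 0 of 15 probe sets passed under RA839, as did 0% of all probe sets with limma. Over all probe sets the smallest adjusted p was 1, and 860 had an unadjusted p under 0.05, of which 0 were members. The median log2 difference was 0.093 over the members and -0.00285 over all probe sets. Ahr 1422631_at had a difference of 0.18 ± 0.17, Ahrr one of 0.36 ± 0.27 and Tiparp 1426721_s_at one of 0.09 ± 0.25 (adjusted p = 1 for each). The RA839 response of WT cells minus that of KO cells passed for 0 members and for 0.0377% of all probe sets, with medians of 0.142 and -0.0145. For Ahr 1422631_at it was 0.53 ± 0.24, with a 95% interval of 0.03 to 1.03 (adjusted p = 1, and 0.261 with the block).

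Silencing of Keap1 was compared with siControl for each siRNA. With siKeap1-1, 6 probe sets were higher and 3 lower than with siControl, on 5 genes, where 5.18% of all probe sets were higher and 4.37% were lower (9.55% in either direction). With siKeap1-2, 4 were higher and 3 lower, on 4 genes, where the shares were 3.64% and 3.14% (6.78%). The median over the members was 0.193 with siKeap1-1, against 0.00245 over all probe sets, and 0.362 with siKeap1-2, against 0.0114. The 2 comparisons share the siControl arrays. With the replicate number as a block, 7 were higher and 3 were lower with either siRNA, where 15.5% and 12.6% of all probe sets passed. Without array 3 of siControl the siKeap1-1 count was 5.

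Ahr was higher with both siRNAs. Ahr 1422631_at read 11.90, 11.74, 11.57 and 11.80 with siKeap1-1 and 11.95, 11.92, 11.80 and 11.88 with siKeap1-2, against 11.12, 10.83, 10.68 and 10.85 with siControl. All arrays of either Keap1 siRNA lay above all control arrays. The differences were 0.88 ± 0.10 (1.85-fold; adjusted p = 0.000127) with siKeap1-1 and 1.02 ± 0.10 (2.03-fold; adjusted p = 5.88e-05) with siKeap1-2. The dim probe set 1450695_at had differences of 0.10 ± 0.11 and 0.24 ± 0.11 (adjusted p = 0.692 and 0.263).

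Among the targets, 1 of the 3 Cyp1b1 probe sets passed as higher. Cyp1b1 1416612_at read 12.87, 12.68, 12.35 and 12.42 with siKeap1-1 and 12.78, 12.61, 12.29 and 12.44 with siKeap1-2, against 12.26, 11.67, 11.50 and 11.71 with siControl. All arrays of either Keap1 siRNA lay above the control arrays, but array 1 of siControl lay close below them. The differences were 0.79 ± 0.17 (1.73-fold; adjusted p = 0.0104) and 0.74 ± 0.17 (1.67-fold; adjusted p = 0.02). With the 3 Cyp1b1 probe sets averaged into 1 value, the calls were lost with both siRNAs, at differences of 0.53 (adjusted p = 0.0659) and 0.48 (adjusted p = 0.108). The siKeap1-2 call was lost without siControl array 2, 3 or 4 or siKeap1-2 array 1 or 2, with an adjusted p of up to 0.064. Cyp1b1 1416613_at had differences of 0.86 ± 0.27 and 0.85 ± 0.27 (adjusted p = 0.0743 and 0.0947, and 0.000472 and 0.000628 with the block). It also passed without array 1 of siControl, at 1.10 (adjusted p = 0.0183) with siKeap1-1 and 1.09 (adjusted p = 0.024) with siKeap1-2. Cyp1b1 1432081_at, dim in this experiment, had differences of -0.08 ± 0.14 and -0.15 ± 0.14 (adjusted p = 0.826 and 0.628).

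Cyp1a1 read 5.20, 5.11, 5.37 and 5.22 with siKeap1-1 and 5.34, 5.94, 5.53 and 5.28 with siKeap1-2, against 5.32, 4.80, 5.05 and 4.97 with siControl. The groups overlapped, and the differences of 0.19 ± 0.14 (adjusted p = 0.494) and 0.49 ± 0.14 (adjusted p = 0.0643) did not pass. The siKeap1-2 difference passed without array 1 of siControl (adjusted p = 0.0363) or array 4 of siKeap1-2 (adjusted p = 0.0465).

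Both inhibitors rose with siKeap1-1. Tiparp 1426721_s_at read 11.34, 11.32, 11.37 and 11.36 with siKeap1-1 and 11.30, 11.21, 11.10 and 11.14 with siKeap1-2, against 10.95, 10.73, 10.80 and 10.73 with siControl. The 4 siKeap1-1 arrays were nearly equal, and no array of either siRNA reached down to the control arrays. The differences were 0.55 ± 0.07 (1.46-fold; adjusted p = 0.000264) and 0.39 ± 0.07 (1.31-fold; adjusted p = 0.00399). Tiparp 1452160_at was higher by 0.42 ± 0.09 (adjusted p = 0.0135) and 0.37 ± 0.09 (adjusted p = 0.0314), the second call being lost without siControl array 2, 3 or 4 or siKeap1-2 array 1, 2 or 3 (adjusted p of up to 0.0937). Tiparp 1452161_at was higher by 0.53 ± 0.14 with siKeap1-1 (adjusted p = 0.0264), a call lost without siControl array 2 or 4 or siKeap1-1 array 1 or 2 (adjusted p of up to 0.0708). With siKeap1-2 it differed by 0.36 ± 0.14 (adjusted p = 0.149, and 0.0421 with the block).

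Ahrr averaged 10.22 ± 0.02 with siKeap1-1 and 10.21 ± 0.19 with siKeap1-2, against 9.84 ± 0.18 with siControl. Its arrays with siKeap1-1 lay above the control arrays, by 0.38 ± 0.10 (1.31-fold; adjusted p = 0.0345). That call was lost without siControl array 2 or 3 or any 1 of the siKeap1-1 arrays, with an adjusted p of up to 0.0996. With siKeap1-2 the difference was 0.37 ± 0.10 (adjusted p = 0.0502, and 0.016 with the block), and it passed without siControl array 1 or siKeap1-2 array 3 (adjusted p = 0.0337 and 0.0386).

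Arnt fell with both siRNAs by 3 of its 5 probe sets. Arnt 1437042_at read 12.47, 12.40, 12.46 and 12.50 with siKeap1-1 and 12.31, 12.12, 12.23 and 12.32 with siKeap1-2, against 12.63, 12.72, 12.63 and 12.82 with siControl. All arrays of either Keap1 siRNA lay below the control arrays. With siKeap1-2 the 3 brighter probe sets fell by 0.46 ± 0.07 (1437042_at; adjusted p = 0.00139), 0.42 ± 0.07 (1419996_s_at; adjusted p = 0.00373) and 0.51 ± 0.07 (1449696_at; adjusted p = 0.00118) on the log2 scale. With siKeap1-1 they fell by 0.24 ± 0.07 (adjusted p = 0.0396), 0.29 ± 0.07 (adjusted p = 0.0216) and 0.28 ± 0.07 (adjusted p = 0.0293). Each of these siKeap1-1 calls was lost without 1 or more single arrays: 1437042_at without siControl array 2, 3 or 4, any siKeap1-1 array or siKeap1-2 array 3 (adjusted p of up to 0.111), 1419996_s_at without siControl array 3 or 4 (up to 0.0645), and 1449696_at without siControl array 1, 3 or 4 or siKeap1-1 array 3 (up to 0.0843). Arnt 1421721_a_at was flat, with differences of -0.003 ± 0.11 with siKeap1-1 and 0.0009 ± 0.11 with siKeap1-2 (adjusted p = 0.994 and 0.998). The dim 1425064_at differed by -0.21 ± 0.08 and -0.19 ± 0.08 (adjusted p = 0.12 and 0.177). Neither passed, although 1425064_at did with siKeap1-1 without siControl array 4 (adjusted p = 0.044).

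Set against each other, siKeap1-1 and siKeap1-2 gave 0 of 15 members past the threshold, where 4.01% of all probe sets passed. An unadjusted p under 0.05 was found for 3 members and for 7118 of all 45037 probe sets tested. The median was 0.0437 over the members and -0.0062 over all probe sets. Those 3 were Arnt 1449696_at, at 0.22 ± 0.07 (adjusted p = 0.126), Arnt 1437042_at, at 0.21 ± 0.07 (adjusted p = 0.116), and Tiparp 1426721_s_at, at 0.16 ± 0.07 (adjusted p = 0.251). Cyp1a1 differed by -0.30 ± 0.14 (adjusted p = 0.347). Without array 3 of siKeap1-1, Arnt 1449696_at differed by 0.28 (adjusted p = 0.0354). For Ahr 1422631_at the interval of the difference ran from -0.35 to 0.08.

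Markers of other cells were counted in the siRNA experiment too. Of the 38, 6 passed with siKeap1-1, where 12.2% of all genes did, and 4 with siKeap1-2, where 8.84% did. With the replicate block, 12 and 8 passed, where 19.5% and 15.9% of all genes did. Without the block, with siKeap1-1, 2 of 8 macrophage markers were lower (Fcgr1 and Cd14), 2 of 5 dendritic-cell markers were lower (Flt3 and Ccr7), 1 of 8 neutrophil markers was higher (Elane) and 1 of 7 fibroblast markers was higher (Pdgfra). With siKeap1-2, Fcgr1 and Cd14 were lower, Pdgfra was higher and Kdr, 1 of 4 endothelial markers, was lower. No B-cell or T-cell marker of 3 each passed with either siRNA without the block. The block added, with siKeap1-1, Adgre1, Mertk, Zbtb46 and Kdr as lower and S100a8 and Cd3e as higher (adjusted p = 0.00212 to 0.0427). With siKeap1-2 it added Mertk, Flt3 and Ccr7 as lower and S100a8 as higher (adjusted p = 0.00332 to 0.034). Summed macrophage signal was 86200 to 89800 with siKeap1-1 and 85900 to 87900 with siKeap1-2, against 92800 to 95300 with siControl, and summed fibroblast signal was 226 to 296 and 254 to 368, against 230 to 291. Summed dendritic-cell signal was 12200 to 14000 with siKeap1-1 and 13700 to 13900 with siKeap1-2, against 13200 to 14000 with siControl. Summed neutrophil signal was 5630 to 9170 with siKeap1-1 and 5760 to 11200 with siKeap1-2, against 3690 to 8250. Summed endothelial signal was 519 to 682 with siKeap1-1 and 443 to 544 with siKeap1-2, against 663 to 748 with siControl. Kdr was the highest, and 3 of the 4 markers averaged below a log2 value of 6 in all 3 groups. So did 3 of the 8 neutrophil markers. Of the 7 fibroblast markers, 6 averaged below 6 with siControl and siKeap1-1, and 5 with siKeap1-2. Their part in the AhR changes was not tested.

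The rest of the pathway was read from lists of 36 genes, of which 29 had a probe set naming only that gene. Each gene was represented by its brightest probe set, with p-values from the same fit over 45037 probe sets, and the shares of all genes given beside the counts are over 18193 genes taken the same way. In KO cells with DMSO, 5 of the 29 were higher and 7 were lower, where 10.3% and 12.9% of all genes were, with a median of 0.118 over the 29 genes and -0.0192 over all genes. The 7 include Nfe2l2, the deleted gene, whose fall was given by the design. In KO cells with RA839, 7 were higher and 7 were lower, where 13.7% and 14.9% of all genes were. The higher ones were Epas1, Serpinb2, Nrip1, Ncoa3, Clock, Cul4b and Ncoa2. The lower ones were Nfe2l2 again, Nqo1, Arnt2, Ido2, Aldh3a1, Ido1 and Npas2. With siKeap1-1, 5 were higher and 4 lower, where 7.06% and 5.18% of genes were, and with siKeap1-2, 2 were higher and 2 lower, where 4.94% and 3.9% were. The medians over the 29 were -0.0329 and -0.0774, against 0.0162 and 0.0268 over all genes. RA839 raised 1 past the threshold in WT cells, Nqo1, where 0.451% of all genes were higher, and 0 in KO cells, where 0% of all genes passed. With the replicate block, 3 of the 29 passed for RA839 in WT cells, where 1.7% of all genes did, 11 for siKeap1-1 (19.5%) and 6 for siKeap1-2 (15.9%). The block added Serpinb2 and Nfe2l2 for RA839 in WT cells, lower by 1.13 (adjusted p = 0.00754) and 0.42 (adjusted p = 0.0421) on the log2 scale. It added Arntl, higher by 0.18 (adjusted p = 0.049), and Sp1, lower by 0.33 (adjusted p = 0.0387), with siKeap1-1, and Cul4b and Ido1, lower by 0.25 (adjusted p = 0.0312) and 0.30 (adjusted p = 0.0428), with siKeap1-2. Between the siRNAs it added Cul4b, 0.38 higher with siKeap1-1 (adjusted p = 0.00654). The counts by list that follow are without the block.

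Nqo1, a quinone reductase and target of AhR and Nrf2 alike, read 6.98, 7.25, 6.92 and 6.79 on the KO arrays with DMSO, against 11.87, 11.84, 11.63 and 11.90 on the WT arrays with DMSO. The groups lay far apart, with a difference of -4.83 ± 0.12 (28.4-fold lower; adjusted p = 3.79e-13). With RA839 Nqo1 was 0.63 ± 0.12 higher in WT cells (adjusted p = 0.0316). In KO cells the difference was 0.39 ± 0.12, which did not pass. The response of WT cells minus that of KO cells was 0.23 ± 0.17 and did not pass either. Nqo1 was 1.38 ± 0.13 higher with siKeap1-1 (adjusted p = 4.32e-05) and 1.28 ± 0.13 higher with siKeap1-2 (adjusted p = 9.03e-05). Of the 7 measured other targets, 0 were higher and 3 were lower in KO cells with DMSO: Nqo1, Aldh3a1 and the deleted gene Nfe2l2 itself.

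Aldh3a1, an aldehyde dehydrogenase inducible through AhR, was lower in KO cells with DMSO by 0.63 ± 0.16 on the log2 scale (adjusted p = 0.00874). With siKeap1-1 it averaged 6.91 ± 0.71, against 4.95 ± 0.30 with siControl, and was 1.96 ± 0.35 higher (adjusted p = 0.00361). With siKeap1-2 its difference of 0.91 ± 0.35 did not pass (adjusted p = 0.16), nor did that between the siRNAs, 1.05 ± 0.35 (adjusted p = 0.135). Serpinb2, which encodes plasminogen activator inhibitor 2, was lower by 1.98 ± 0.37 with siKeap1-1 (adjusted p = 0.00467) and by 1.89 ± 0.37 with siKeap1-2 (adjusted p = 0.00807). Slc7a5, a subunit of an amino acid transporter, was higher by 0.92 ± 0.09 with siKeap1-1 (adjusted p = 6.19e-05) and by 0.46 ± 0.09 with siKeap1-2 (adjusted p = 0.00994). Between the 2 Keap1 siRNAs it was 0.46 ± 0.09 higher with siKeap1-1 (adjusted p = 0.0137). Of the 7 other targets, 3 were higher and 2 lower with siKeap1-1, and 2 were higher and 2 lower with siKeap1-2, the second of the lower ones being Nfe2l2 in each.

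Among 6 partners and relatives of the bHLH-PAS family, 3 were higher and 2 were lower in KO cells with DMSO. Arnt2, the second ARNT gene, read 6.56, 5.81, 5.44 and 5.34 on the KO arrays with DMSO, against 7.54, 7.05, 7.80 and 8.51 on the WT arrays with DMSO. It was 3.84-fold lower, at -1.94 ± 0.33 (adjusted p = 0.000757), while 3 of the 5 probe sets of its relative Arnt were higher. Epas1, which encodes HIF-2α and also pairs with ARNT, was higher by 1.22 ± 0.34 (adjusted p = 0.0199), and Clock and Npas2, of the circadian clock, differed by 0.50 ± 0.10 (adjusted p = 0.00283) and -0.48 ± 0.17 (adjusted p = 0.0498). With siKeap1-1 Epas1 was lower by 1.28 ± 0.14 (adjusted p = 0.000109). With siKeap1-2 no member of that list passed, and Epas1 differed between the 2 Keap1 siRNAs by -1.16 ± 0.14 (adjusted p = 0.000607).

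Of 8 coregulator and turnover genes, 2 were higher and 0 were lower in KO cells with DMSO: Ncoa2, a coactivator, by 0.39 ± 0.12 (adjusted p = 0.0286), and Cul4b, a ubiquitin ligase subunit that AhR can recruit, by 0.32 ± 0.10 (adjusted p = 0.0289). With siKeap1-1, Ncoa3 was lower by 0.30 ± 0.07 (adjusted p = 0.0241), and with siKeap1-2 none of the 8 passed. Of 7 genes that make or handle tryptophan-derived ligands, 0 were higher and 2 were lower in KO cells with DMSO. Ido1 and Ido2, the enzymes that open the kynurenine pathway, were lower by 1.07 ± 0.28 (adjusted p = 0.0126) and 1.29 ± 0.27 (adjusted p = 0.00285). With siKeap1-1, Ido2 and Kynu, which cleaves kynurenines, were higher by 0.70 ± 0.19 (adjusted p = 0.0372) and 0.38 ± 0.08 (adjusted p = 0.0119), and with siKeap1-2 none of the 7 passed. Of the chaperone list, Hsp90aa1 was analysed, and it passed in no comparison.

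**Figure D4:**
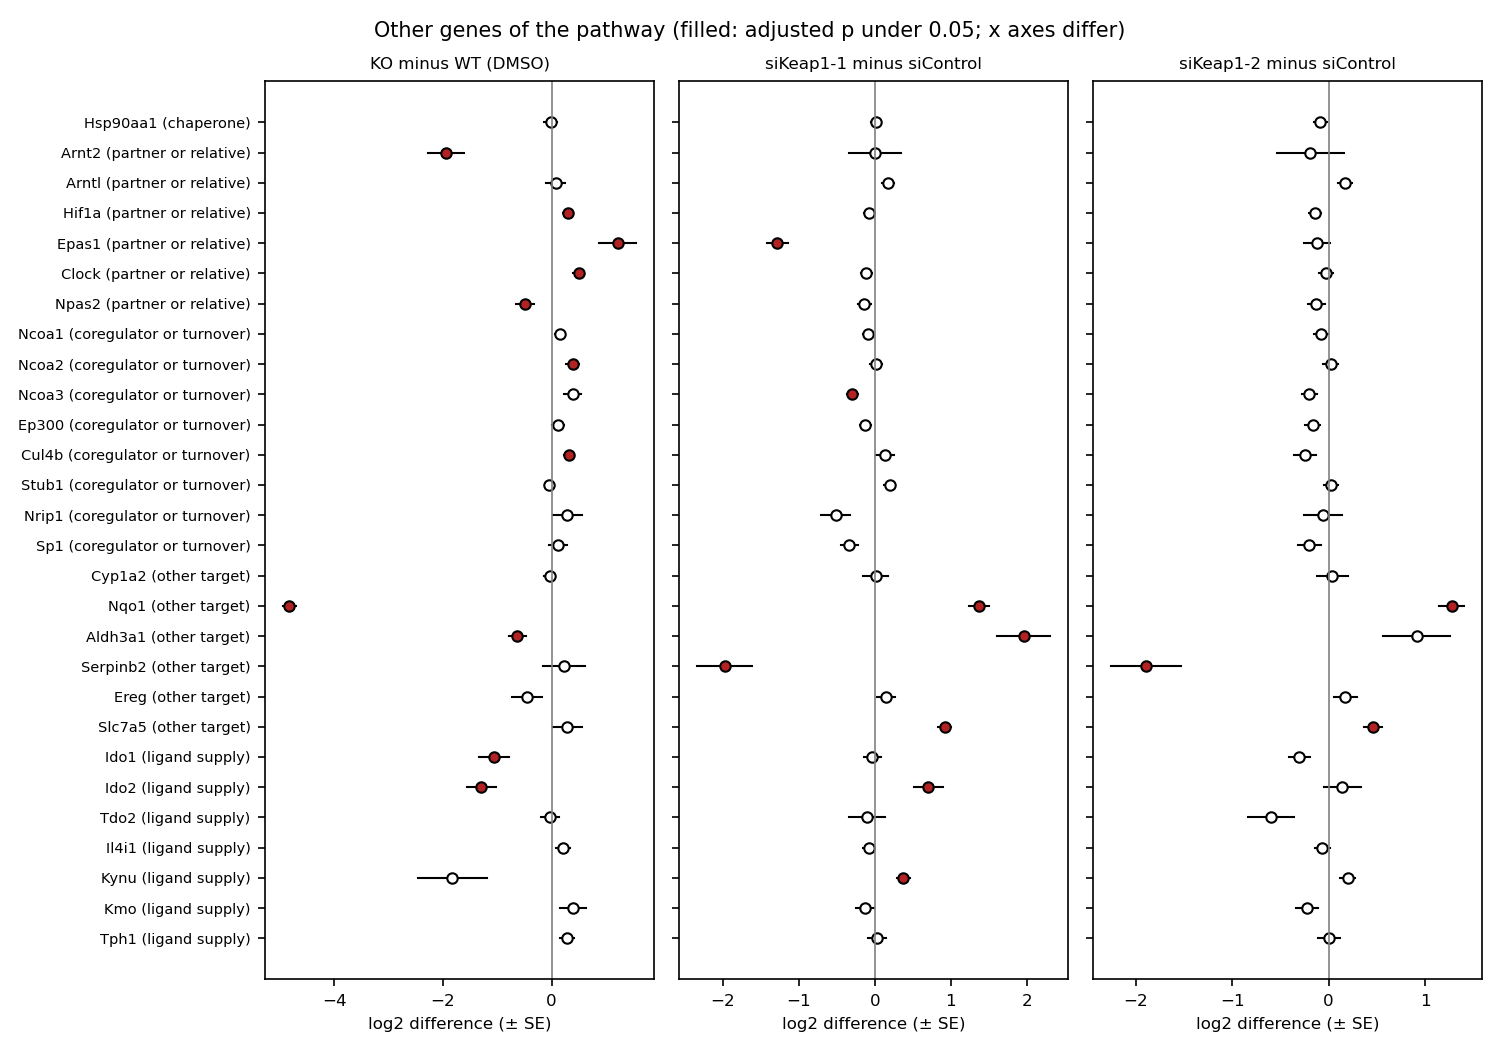
Log2 differences with SE (limma, 1 probe set per gene) of 28 measured genes of the pathway lists, Nfe2l2 left out, for KO minus WT in DMSO and for each Keap1 siRNA minus siControl; filled points had an adjusted p under 0.05, and the x axes differ. Nqo1 lies at -4.83 for KO minus WT and at 1.38 and 1.28 for the siRNAs, and Epas1 lies right of 0 for KO minus WT and left of 0 for siKeap1-1.

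The genes most like each member across arrays were listed by Pearson correlation among 9091 genes, as a description over arrays that share groups and cultures. Over the 16 compound arrays, Ahr was most like Txnrd1 (0.995), Gclm (0.992) and Slc7a11 (0.991). Ahrr was most like Tns1, Pde8b and Acss2 (0.976 to 0.984), Cyp1b1 like Adgrg3, Cox6b2 and Slc9a3r2 (0.984 to 0.987) and Cyp1a1 like Hspb1, Myt1 and Agbl5 (0.967 to 0.973). Tiparp was most like Gnl3, Pspc1 and Zfand5 (0.968 to 0.972), and Arnt like Brcc3, Pogz and Casd1 (0.942 to 0.949). Over the 12 siRNA arrays, Ahr was most like Acss2, Lrp8 and Praf2 (0.977 to 0.981) and Cyp1b1 like Pdia6, Esr1 and Praf2 (0.958 to 0.979). Tiparp was most like Ehd1, Nup88 and Mettl27 (0.973 to 0.984), Arnt like Cttnbp2nl, Fgd4 and P2ry14 (0.958 to 0.978), and Ahrr like Cdc7, Naaa and Rbmx (0.918 to 0.941).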

How the data were processed

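RNA of 28 cultures was measured on Affymetrix mouse arrays, 4 per group. The deposited table holds log2 values per probe set and array, which per the submitters' processing notes come from RMA, a method that corrects background, normalizes across arrays and summarises probes; of its version nothing is given in the sources used here. Groups follow the sample titles. Gene symbols come from the platform's annotation table. Arrays carry no read depth: their number limits the precision.

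The compound and siRNA arrays were fitted separately in limma 3.58.1 (R 4.3.3; 1 mean per group in lmFit, untrended eBayes) over 45037 probe sets, with two-sided Benjamini-Hochberg adjustment over all of them and a threshold of 0.05. Errors beside differences are SE, and those beside means are SD (n = 4). The 8 comparisons are those described in the report. The procedure was tested on simulated data.

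Same-numbered arrays deviated together within WT (correlations of 0.2 to 0.4), within KO (0.58 to 0.6) and in the siRNA experiment (0.11 to 0.63), all above the minimum of 0.1. The numbers come from the sample titles. For these pairs, members, pathway genes and markers whose call the block changed are named with it in the report, except markers between the 2 Keap1 siRNAs. Alternatives were this block, a trended robust prior, only the groups compared, quantile or median scaling, brighter probe sets, array weights, an adjusted p under 0.01, 1 value per gene and each array left out in turn.

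All probe sets of the 6 members are described, with up to 4 genes per pathway list past the threshold by size of change, Nqo1, Cyp1a2 and Arnt2 in any case, and the 3 genes most like each member that passed in that experiment, among genes with an SD over those arrays above the median. Epas1, Slc7a5 and Kynu are also named by array in the closing section, chosen after their values were seen. One further gene of that rule is not reported here. The members and lists were chosen with earlier results of these data known.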

Additional observations from a re-analysis of the deposited data

Results flagged for a closer look

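In each group of 4 arrays the highest and lowest value were checked for a gap to the nearest other array that exceeded the critical share of the group's range. Of 105 groups of values, 7 were picked out in this way, and chance picks out about 5%. Arnt gave 4 of them. Arnt 1419996_s_at read 12.04 on array 3 of siKeap1-1, below the other arrays at 12.25 to 12.29, and Arnt 1425064_at read 3.96 on array 2 of WT DMSO, above the others at 3.48 to 3.54. Arnt 1437042_at read 12.65 on array 2 of WT RA839, above the others at 11.86 to 11.99; this is the array with the high Gapdh ratio. Arnt 1449696_at read 10.38 on array 3 of KO DMSO, below the others at 10.46 to 10.47.

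Cyp1b1 1416613_at read 7.67 on array 4 of WT DMSO, below the others at 8.65 to 8.78. Tiparp 1452160_at read 9.70 on array 3 of siKeap1-1, below the others at 9.98 to 10.04, and Tiparp 1452161_at read 8.40 on array 4 of siKeap1-2, below the others at 8.62 to 8.67.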

How the results depend on the processing

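No member probe set with a call in any setting reversed its direction in any of the alternatives run. The count for RA839 in WT cells, 0, was 2 with the replicate block within genotype and 1 with only the groups compared, and 0 to 1 with 1 array left out (1 without KO RA839 array 1). The siKeap1-1 count, 9, was 5 with only the groups compared, 2 at an adjusted p under 0.01 and 5 to 9 with 1 array left out (5 without siControl array 3). The count between the siRNAs, 0, was 1 with a trended robust prior, 2 with only brighter probe sets and 0 to 1 with 1 array left out (1 without siKeap1-1 array 3). With 1 array left out the count was 8 to 10 for KO against WT in DMSO, 9 to 11 under RA839, 5 to 10 for siKeap1-2, and 0 for RA839 in KO cells and for the difference between the responses. What caused these moves was not tested.

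KO and WT arrays of the same number were not paired by the check (correlations of -0.22 to -0.022 in DMSO and -0.13 to -0.0081 under RA839). A block on them gave 9 members in DMSO, with Ahr 1450695_at at an adjusted p of 0.0521, and 11 under RA839, with Tiparp 1452160_at and 1452161_at at 0.0384 and 0.0432. Of the other genes in DMSO, that block ended the call on Npas2 (0.0524) and brought in Kynu (0.0372), Lum (0.0327) and Cd3d (0.0187), the last also under RA839 (0.0223). The replicate block in the siRNA experiment gave 10 members with either siRNA. Averaging a gene's probe sets gave Ahr a difference of -1.29 in KO cells with DMSO, since its dim probe set enters. It ended the Cyp1b1 calls with both siRNAs, at adjusted p of 0.0659 and 0.108, and brought past the threshold Arnt under RA839 for KO against WT (0.0104). Ahrr and Cyp1a1, with 1 probe set each, passed with siKeap1-2 in both fits with 1 value per gene (brightest probe set or mean). Their values were unchanged there, and the fit ran over genes rather than probe sets.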

Other observations

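The arrangement of the KO arrays seen for the AhR system also appeared in genes of the pathway lists that did not all pass the test. Slc7a5 read 9.34, 9.69, 10.40 and 10.37 on arrays 1 to 4 of the KO cells with RA839 and 9.31, 9.70, 10.49 and 10.45 on those with DMSO, so that arrays 3 and 4 were high. Epas1 read 11.25, 11.51, 10.37 and 10.33 on the KO arrays with RA839 and 11.31, 11.52, 10.61 and 10.53 on those with DMSO, so that arrays 1 and 2 were high. Kynu read 9.27, 9.79, 6.90 and 7.36 on the KO arrays with RA839 and 9.20, 9.74, 6.89 and 7.11 on those with DMSO. The labels do not say what an array number marks, and what sets these arrays apart was not tested.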
